A study of Mus musculus with 2 samples.

Results

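Cytochrome P450 enzymes were described on 2 Affymetrix mouse genome expression arrays, 1 hybridised with small intestine RNA and 1 with colon RNA. Both tissues were biopsies of adult mice of the wild-type genotype, with no treatment named in the labels. The labels name no strain, sex or intestinal segment and do not say how many animals gave RNA. A gene was taken as a P450 gene if its symbol on the array platform was Cyp followed by a number, letters and a number, as in Cyp3a11, with the sterol demethylase Cyp51 and the vitamin D hydroxylase Cyp24a1 left out. This gave 71 of the 18194 genes named on the arrays, and 93 probe sets. A probe set is the group of short oligonucleotides that reports a transcript, and each gene was represented by its brightest probe set over both arrays.

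P450 enzymes are heme proteins that insert an oxygen atom into their substrates with electrons passed on from NADPH. Families 1 to 4 mainly oxidise drugs, dietary compounds and fatty acids, and those of the gut epithelium meet swallowed compounds before the liver does. The higher numbered families mostly hold enzymes of sterols, bile acids, steroid hormones and vitamins. Many genes of families 2, 3 and 4 lie in clusters of near-identical copies, so that a probe set named for a single gene can also bind transcripts of its neighbours.

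Levels are log2 expression values as the authors normalized them, and a level of 5 or less was taken as background, while genes above it in either tissue are called detected. Differences are small intestine minus colon after levels under 5 were raised to 5, here called floored differences, and genes count as higher in a tissue from a difference of 3-fold on. A fold against a tissue at background is only a bound and is given with the words "at least". Since each tissue had a single array, no replicate exists, no test was run, and neither an SD nor a p-value can be given. Differences between tissues varied among probe sets of the same gene with a pooled SD of 0.54 (3535 genes with several probe sets above background on both arrays). This SD measures disagreement between probe sets. It leaves out errors that the probe sets of an array share, and it does not cover probe sets at background in either tissue. It also says nothing of variation between mice. In RNA of whole tissue, fewer cells of a type and less RNA per cell cannot be told apart.

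Most region markers of the epithelium were higher in the tissue they are known from. The marker lists were chosen with earlier results of these data known, so this is no independent check of the labels. Of the small intestinal enterocyte markers 8 of 9 measured were higher in the small intestine, and of the colonocyte markers 5 of 8 were higher in the colon. Epithelial markers shared by both tissues lay above background on both arrays in 9 of 9 cases, with 1, Vil1, past 3-fold (3.02-fold higher in the small intestine). Vil1 is also on the list of small intestinal enterocyte markers and is counted in both lists. Exocrine pancreas markers were high on the colon array, where all 11 measured lay between 9.76 and 13.95. On the small intestine array they spanned 2.30 to 12.68, and 8 of the 11 were at background. Leukocyte markers were higher in the small intestine in 4 of 8 cases, and smooth muscle markers higher in the colon in 6 of 8. The part of leukocytes and smooth muscle in the P450 values was not tested.

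Many P450 genes were not detected, and those that were ranged from near-equal levels in both tissues to wide differences. Of the 71 genes, 28 lay above background in the small intestine (57.3% of all named genes did) and 26 in the colon (57.2% of all). These were 21 genes above background in both tissues, 7 in the small intestine only and 5 in the colon only, and 38 were at background on both arrays. At the 3-fold rule 9 P450 genes (12.7%) were higher in the small intestine, against 3.46% of all named genes, and 7 (9.86%) were higher in the colon, against 3.33% of all. Of the 33 P450 genes above background in either tissue, 48.5% were past 3-fold in some direction. The same share over all genes above background in either tissue was 11.2%, made of 5.71% higher in the small intestine and 5.49% higher in the colon. The median of the absolute floored differences was 1.43 for the 33 P450 genes and 0.52 for all genes above background in either tissue. With the sign kept, the median was 0.55 for P450 genes and -0.06 for all, and that of P450 genes moved to 0.011 at a background level of 4, to -0.045 at 6 and to 0.071 with the median over probe sets.

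**Figure D1:**
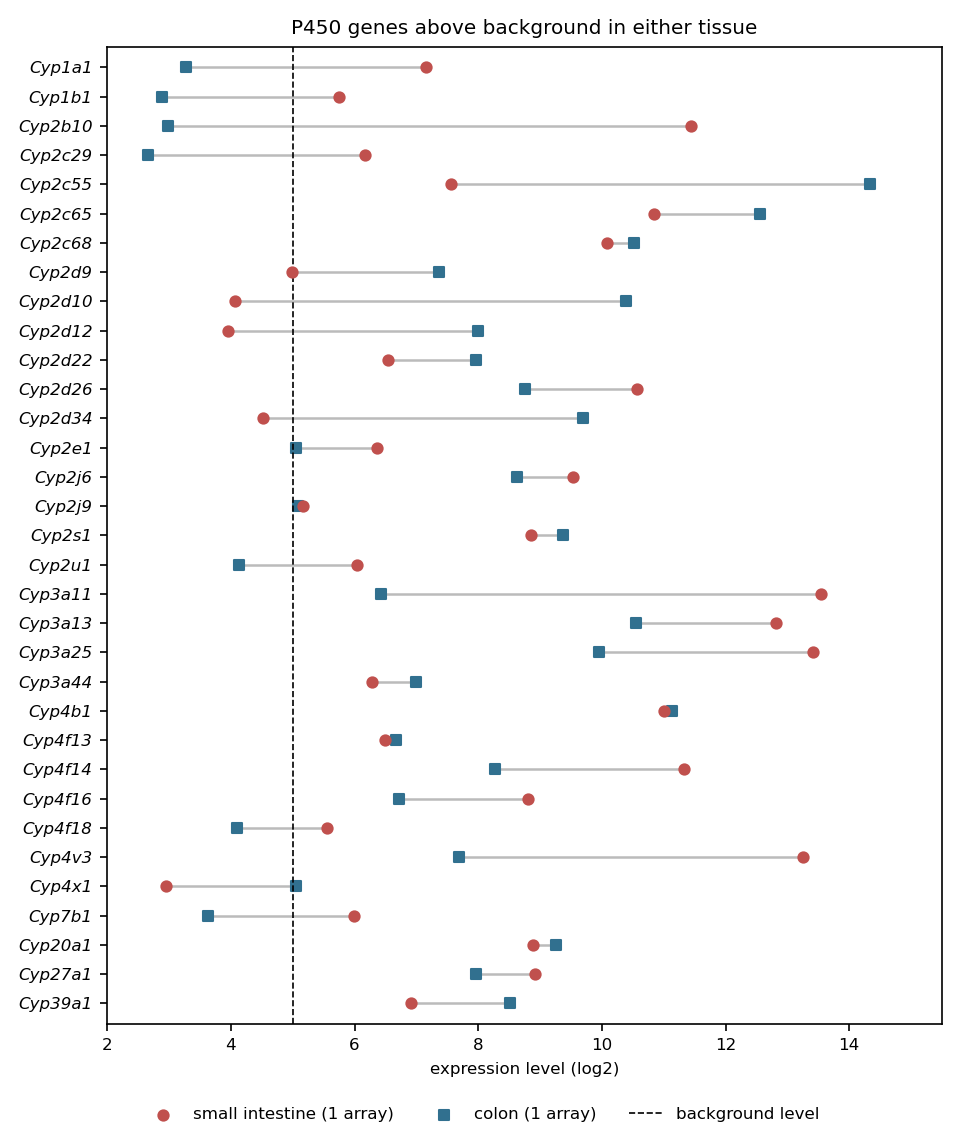
Expression levels (log2) of the 33 P450 genes above the background level of 5 in either tissue, ordered by family and subfamily, with 1 circle for the small intestine array, 1 square for the colon array and a grey line joining both. Cyp3a11, Cyp2b10 and Cyp4v3 show the long lines with the circle to the right, and Cyp2c55, Cyp2d10 and Cyp2d34 the long lines with the square to the right.

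Direction varied between families and, in family 2, within the family. All genes past 3-fold in families 3 and 4 were higher in the small intestine, 3 of 5 genes of family 3 and 3 of 13 of family 4. Family 2, with 35 genes, held 2 with the higher level in the small intestine and 6 with the higher level in the colon. In the plot of all named genes the P450 genes past 3-fold lie on both sides of the diagonal, whereas the undetected members crowd its lower end.

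**Figure D2:**
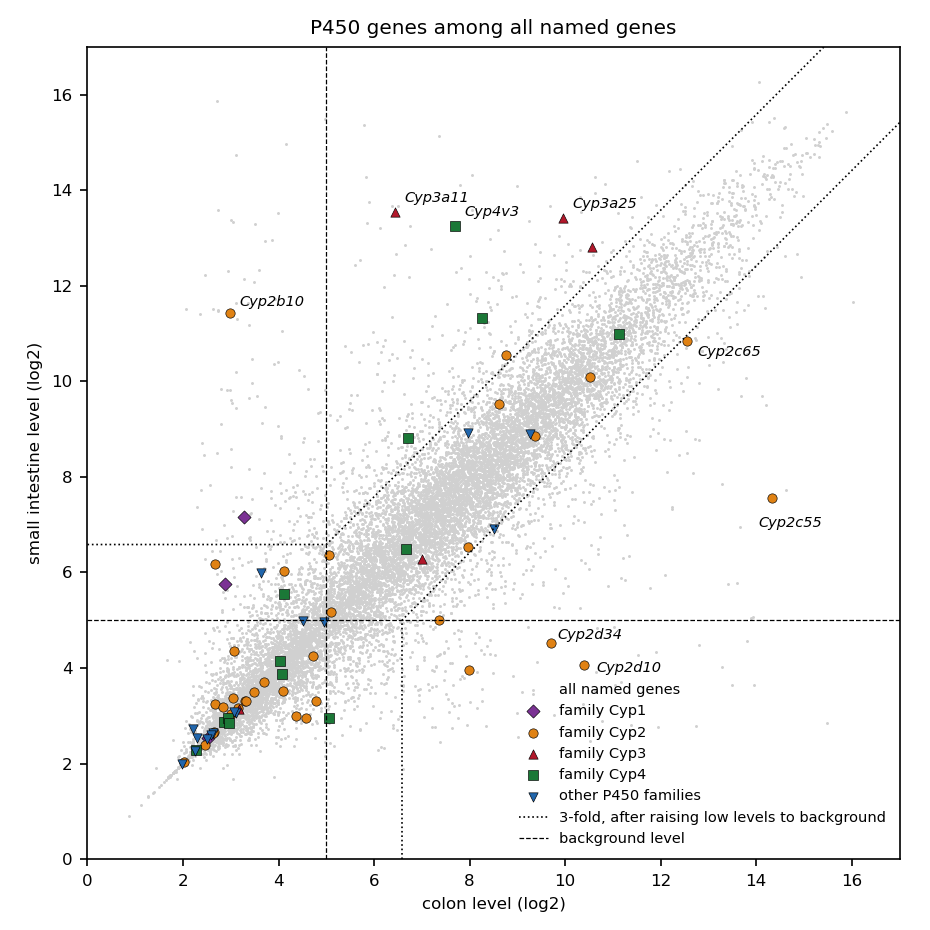
Level in the small intestine (vertical axis, log2) against level in the colon (horizontal axis, log2) for 18194 named genes in grey and the 71 P450 genes coloured by family. Dashed lines mark the background level and dotted lines the 3-fold rule, and 9 P450 genes lie beyond the upper dotted line and 7 beyond the lower one.

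The Cyp3a subfamily, which in liver and gut oxidises drugs, steroids and bile acids, had 3 of its 5 genes higher in the small intestine and 0 higher in the colon. Cyp3a11, the main inducible member of the mouse, had a level of 13.55 in the small intestine against 6.43 in the colon, which is 138-fold higher. Cyp3a25 had 13.42 in the small intestine against 9.95 in the colon, 11.1-fold higher. Cyp3a13, which lies apart from the other Cyp3a genes on chromosome 5, had 12.82 in the small intestine against 10.55 in the colon, 4.81-fold higher. All 3 genes were above background on both arrays, with the colon level of Cyp3a11, 6.43, lying closest to it. Cyp3a44, a close relative of Cyp3a11, did not follow them and had 6.28 in the small intestine against 7.0 in the colon, a floored difference of -0.72. The fifth member, Cyp3a16, known as a gene of the fetal liver in mice, was at background on both arrays. Each Cyp3a gene was read by 1 probe set.

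Cyp3a11 and Cyp3a44 are neighbours among the measured genes of this cluster and had unlike differences, so their start regions are shown for comparison. RefSeq start regions of 250 bases before the transcript start were aligned in GRCm38.p6, the build of all sequences here, and 76.0% of the bases of this pair were the same. Cyp3a16 and Cyp3a44 shared 94.4% and Cyp3a11 and Cyp3a16 79.6%. The stretches that follow are 30 aligned bases from chr5:145879885-145879914 and chr5:145805890-145805919, both on the minus strand, and capitals mark the 5 positions at which they are unlike.
Cyp3a11: gccGcccatTCtcccagcatataaTtactG
Cyp3a44: gccAcccatCTtcccagcatataaGtactT
The 25 bases in lower case were the same in both genes. The Cyp3a11 stretch covers bases -60 to -31 from the transcript start and the Cyp3a44 stretch bases -45 to -16.

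The Cyp2b genes encode phenobarbital-inducible enzymes. Cyp2b10 had 11.44 in the small intestine against 2.99 in the colon, at least 86.6-fold higher, and its other probe sets gave 10.82 and 9.97 in the small intestine against 2.77 and 3.26 in the colon. All of its 3 probe sets were thus at background in the colon. Those with the higher levels bear a mark of the array maker for sets that match several transcripts. The set with no such mark gave a floored difference of 4.97. The other 3 members, Cyp2b9, Cyp2b13 and Cyp2b19, were at background on both arrays.

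Family 1 enzymes oxidise polycyclic aromatic compounds and are induced through the aryl hydrocarbon receptor. Cyp1a1 had 7.15 in the small intestine against 3.28 in the colon, at least 4.45-fold higher. With a background level of 6 it was no longer past 3-fold. Its single probe set bears a mark for sets that match several transcripts, here of the same gene by the array maker's scheme. Cyp1b1 had 5.75 in the small intestine against 2.89 in the colon, at least 1.69-fold higher and under the 3-fold rule. Cyp1a2, a liver enzyme that clears caffeine, was at background on both arrays.

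The start regions of Cyp2b10 and Cyp1a1 are shown because both genes were detected in the small intestine alone and both hold the core letters GCGTG to which the aryl hydrocarbon receptor binds with its partner Arnt. GCGTG on either strand was found within 250 bases before the start in 28.2% of 32851 RefSeq mouse start regions and in 10 of the 46 P450 genes with a single start region. It was in 4 of 7 such genes higher in the small intestine and in 0 of 4 higher in the colon. Those 4 genes higher in the colon all come from the Cyp2d and Cyp2c clusters, so they are not independent and no conclusion is drawn from these counts. In the Cyp2b10 stretch (chr7:25897578-25897657, plus strand) capitals mark GCGTG, and in the Cyp1a1 stretch (chr9:57697568-57697597, plus strand) they mark TATAAA, the core of a TATA box. The GCGTG of Cyp1a1 lies outside the bases shown.
Cyp2b10: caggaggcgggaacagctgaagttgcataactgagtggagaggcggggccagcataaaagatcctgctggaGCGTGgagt
Cyp1a1: acagacacagagtccTATAAAggtggtggt
A match of letters describes the sequence and does not show that a protein binds there.

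Genes of family 4 act mainly on fatty acids and on lipid mediators made from them. Cyp4v3, the mouse relative of the human fatty acid hydroxylase CYP4V2, had 13.25 in the small intestine against 7.69 in the colon, 47.4-fold higher. The probe set of these values bears a mark for sets that match several transcripts. The other Cyp4v3 set, with no such mark, gave 10.66 in the small intestine against 4.94 in the colon. That colon level is at background, so its floored difference of 5.66 is only a bound. Cyp4f14, an enzyme that inactivates leukotriene B4 in mice, had 11.33 in the small intestine against 8.27 in the colon, 8.38-fold higher. Cyp4f16 had 8.81 in the small intestine against 6.71 in the colon, 4.28-fold higher, and its other probe set gave a floored difference of 1.84. The rest of this family showed no difference past 3-fold. Cyp4b1, an enzyme known from the lung, was at 11.00 in the small intestine against 11.13 in the colon. Cyp4f13 was at 6.49 in the small intestine against 6.66 in the colon. Cyp4f18, a leukotriene hydroxylase of neutrophils, was at 5.55 in the small intestine against 4.11 in the colon, and Cyp4x1, known from the brain, at 2.95 in the small intestine against 5.05 in the colon. None of these 4 genes was past the 3-fold rule. The fatty acid hydroxylases of the liver and kidney, Cyp4a12a, Cyp4a14 and Cyp4a31, were at background on both arrays, as were Cyp4f15, Cyp4f39 and the pseudogene Cyp4f41-ps.

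The Cyp2d subfamily held genes past 3-fold in both directions. These enzymes are the mouse relatives of human CYP2D6, which oxidises many drugs. Cyp2d10 had 4.06 in the small intestine against 10.40 in the colon, at least 42.1-fold higher in the colon. Cyp2d34 had 4.52 in the small intestine against 9.69 in the colon, at least 25.9-fold higher in the colon. Cyp2d12 had 3.95 in the small intestine against 7.99 in the colon, at least 7.97-fold higher in the colon. These genes lay at background in the small intestine, and so did Cyp2d9, with 5.0, just under the background level, in the small intestine against 7.37 in the colon, at least 5.17-fold higher in the colon. Its probe set bears a mark for sets that match several transcripts, and at a background level of 6 this gene was no longer past 3-fold. Cyp2d22, with 6.54 in the small intestine against 7.97 in the colon, was 2.70-fold higher in the colon and so under the rule. The difference of its second probe set was -0.49. Cyp2d26 went the other way, with 10.56 in the small intestine against 8.76 in the colon, 3.48-fold higher in the small intestine. Cyp2d40 and the transcribed pseudogene Cyp2d13 were at background on both arrays.

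Exocrine pancreas markers were higher in the colon in 10 of 11 cases. The sum of their linear levels was 12.76 in the small intestine against 16.18 in the colon on the log2 scale. Without Clps, the marker not past 3-fold, the sums were 8.69 in the small intestine against 15.93 in the colon. Their part in the values of the 7 P450 genes higher in the colon was not tested.

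The Cyp2d genes lie in one cluster on chromosome 15. In the order of the RefSeq gene table the 5 genes from Cyp2d22 through Cyp2d10, Cyp2d9 and Cyp2d12 to Cyp2d34 had a floored difference below 0, Cyp2d13 and Cyp2d40 were at background, and Cyp2d26 at the far end had one above 0. Genes of this cluster are close copies, so signal of one can be read by the probe set of another, and whether the 4 genes higher in the colon give separate signals was not tested. The start regions of Cyp2d10, Cyp2d9 and Cyp2d26 are shown because they come from genes of opposite direction, and capitals mark TATAAA, here read on the opposite strand as TTTATA. On the gene's own strand these capitals end in TATA, so the mark does not give the direction of a TATA box. The stretches are chr15:82407210-82407239 (minus strand), chr15:82452297-82452376 (plus strand) and chr15:82794261-82794290 (minus strand).
Cyp2d10: aaccctggcactccTTTATAaggcagcagg
Cyp2d9: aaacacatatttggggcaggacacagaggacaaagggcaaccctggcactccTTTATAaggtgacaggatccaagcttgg
Cyp2d26: tcccctcctccctcTTTATAagggaccagg
Over 250 bases Cyp2d10 and Cyp2d9, both higher in the colon, shared 83.6% of bases. Cyp2d26, higher in the small intestine, shared 56.4% with Cyp2d10 and 56.8% with Cyp2d9. Pairs of P450 genes from different subfamilies shared 43.2% to 58.4%, with a median of 52.0% (972 pairs).

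**Figure D3:**
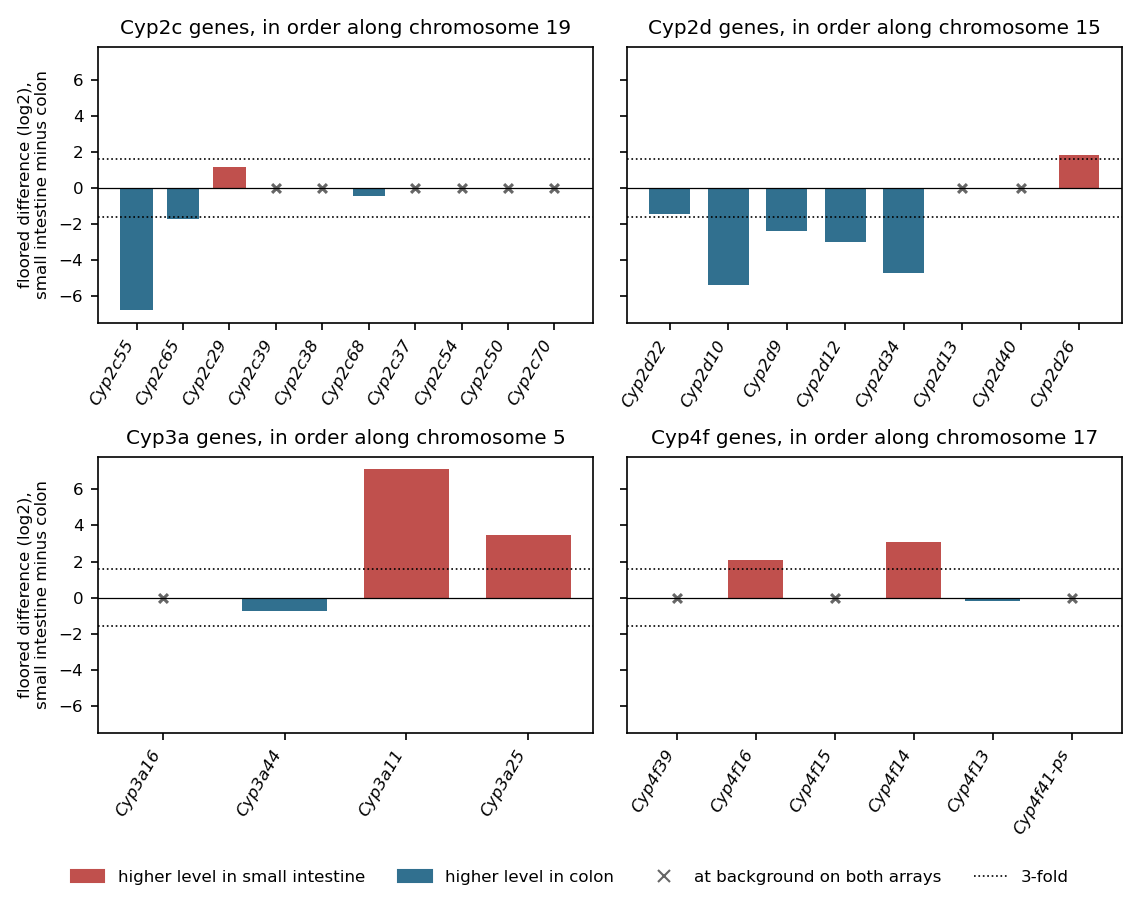
Floored differences (log2, small intestine minus colon, vertical axis) of the genes of 4 P450 clusters in their order along the chromosome, with crosses for genes at background on both arrays and dotted lines at 3-fold. In the Cyp2d panel 5 neighbouring bars point down and that of Cyp2d26 points up, and in the Cyp3a and Cyp4f panels all bars past 3-fold point up.

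The Cyp2c subfamily, which makes epoxides and hydroxy acids from arachidonic acid and oxidises drugs, was the largest with 11 genes, of which 4 lay above background in either tissue. Cyp2c55, known in mice for oxidising arachidonic acid, had 7.56 in the small intestine against 14.34 in the colon, 109.6-fold higher in the colon. Cyp2c65, next to it among the measured genes on chromosome 19, had 10.84 in the small intestine against 12.56 in the colon, 3.30-fold higher in the colon. Its probe set bears a mark for sets that match several transcripts, no other set was there to compare, and its difference fell short of 3-fold with the arrays centred on spike-ins. Cyp2c68 was at 10.08 in the small intestine against 10.52 in the colon, 1.35-fold higher in the colon. Cyp2c29 was at 6.18 in the small intestine against 2.67 in the colon, higher in the small intestine by at least 2.26-fold. Both genes were under the 3-fold rule. The other 7 members, Cyp2c23, Cyp2c37, Cyp2c38, Cyp2c39, Cyp2c50, Cyp2c54 and Cyp2c70, were at background on both arrays.

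The start regions of Cyp2c55 and Cyp2c65 are given because they carry the higher calls of this subfamily in the colon. The stretches are chr19:39006974-39007003 and chr19:39060926-39061005, both on the plus strand, and capitals mark TATAAA.
Cyp2c55: agttggcagctagcatTATAAAagccctgg
Cyp2c65: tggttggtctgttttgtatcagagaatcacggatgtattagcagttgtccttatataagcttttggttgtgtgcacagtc
Cyp2c65 holds TATAAA only outside the bases shown, and this pair shared 57.2% of 250 bases, which is the median of pairs within a subfamily (63 pairs). TATAAA on either strand was found in 12.4% of all start regions and in 19 of 46 P450 genes (41.3%). Among those past 3-fold it was in 3 of 7 genes higher in the small intestine, against 4 of 4 higher in the colon. Those 4 genes all come from the Cyp2d and Cyp2c clusters, so they are not independent. No conclusion is drawn from these counts or from those below. In Cyp2d10 and Cyp2d9 the match lies on the opposite strand. The same is true of Cyp2d26, which was higher in the small intestine. The nuclear receptor half-site AGGTCA was in 9 of 46 P450 start regions (14% of all) and its variant AGTTCA in 6 of 46 (11.8% of all). AGGTCA was in 1 of 7 genes higher in the small intestine and 0 of 4 higher in the colon, and AGTTCA in 2 of 7 and 0 of 4.

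The remaining genes of family 2 differed less. Cyp2j6, an epoxygenase of arachidonic acid, was at 9.53 in the small intestine against 8.62 in the colon, 1.88-fold higher in the small intestine, and its second probe set gave a difference of 1.14. Cyp2e1, which oxidises ethanol, was at 6.37 in the small intestine against 5.05 in the colon, 2.50-fold higher in the small intestine. Cyp2u1, a fatty acid hydroxylase, was at 6.03 in the small intestine against 4.12 in the colon. All of these lay under the 3-fold rule. Cyp2s1, known from epithelia that face the outside, was at 8.85 in the small intestine against 9.38 in the colon, and Cyp2j9 was close to background, with 5.16 in the small intestine against 5.09 in the colon. Cyp2a12, Cyp2f2, Cyp2g1, Cyp2j5, Cyp2j11, Cyp2j13 and the vitamin D hydroxylase Cyp2r1 were at background on both arrays.

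In families 7 and above, most of them enzymes of sterols, bile acids, hormones and vitamins, 4 of 15 genes were detected, beside 60.5% of all named genes, and 1 was past 3-fold. Cyp39a1, an oxysterol hydroxylase of bile acid synthesis, was at 6.92 in the small intestine against 8.51 in the colon, 3.01-fold higher in the colon. This value lies just inside the rule and fell short of it when the arrays were rescaled by quantiles, by their medians or by spike-ins, and Cyp2d22 with 2.70-fold lies just outside it. Cyp27a1, the mitochondrial sterol hydroxylase that starts the alternative route to bile acids, was at 8.92 in the small intestine against 7.97 in the colon, 1.93-fold higher in the small intestine. Cyp7b1, the next enzyme of that route, was at 5.99 in the small intestine against 3.62 in the colon, higher in the small intestine by at least 1.99-fold. This probe set bears a mark for sets that match several transcripts, and the unmarked set above background gave a floored difference of 0.37. Cyp20a1, an enzyme with no settled substrate, was at 8.89 in the small intestine against 9.27 in the colon. Cyp7a1 and Cyp8b1, enzymes of the classic bile acid route of the liver, were at background on both arrays. So were the steroid hormone enzymes Cyp11a1, Cyp11b1, Cyp11b2, Cyp17a1 and Cyp21a1, the retinoic acid hydroxylases Cyp26a1 and Cyp26b1, the vitamin D hydroxylase Cyp27b1 and the brain cholesterol hydroxylase Cyp46a1. Levels of the 38 undetected P450 genes ran from 1.98 to 4.98. Among these, Cyp11a1 (4.98 in the small intestine against 4.51 in the colon) and Cyp26b1 (4.97 in the small intestine against 4.96 in the colon) reached levels just under the background level.

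Of the 33 detected P450 genes 11 had several probe sets, and these did not always detect the same gene. In 6 of the 11 (Cyp1b1, Cyp2u1, Cyp4f18, Cyp7b1, Cyp20a1 and Cyp27a1) a further set was at background on both arrays while the brightest was above it, and all 6 were under the 3-fold rule. In 7 of the 11 at least 2 sets lay above background, and in 0 of these 7 did such a set differ from the brightest in its side of the 3-fold rule. For 13 of the 16 genes past 3-fold there was 1 probe set alone, so no such comparison could be made.

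**Figure D4:**
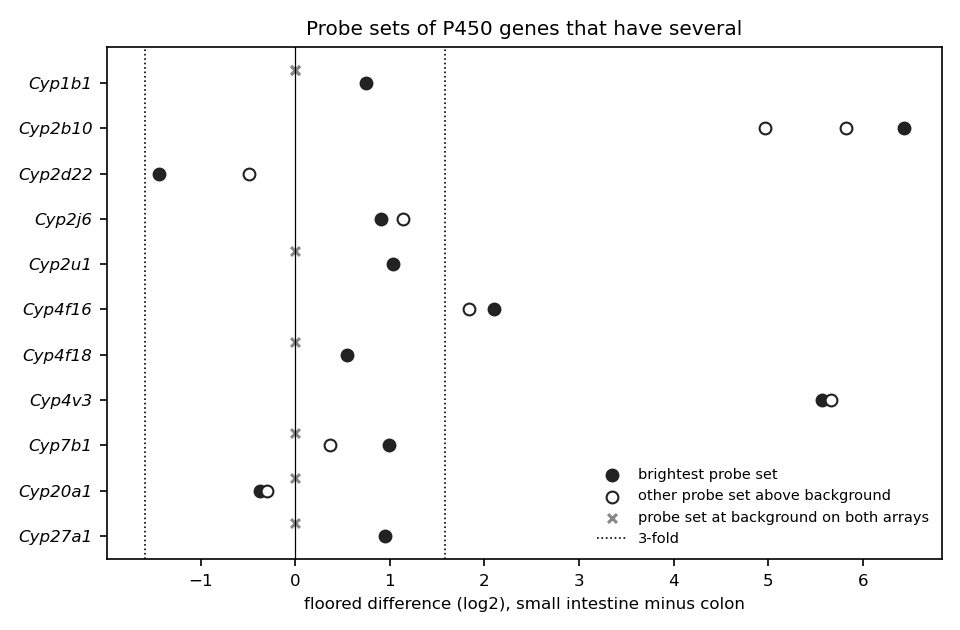
Floored differences (log2, small intestine minus colon, horizontal axis) of every probe set of the 11 detected P450 genes that have several, with filled circles for the brightest set, open circles for others above background and crosses for sets at background on both arrays. The sets of Cyp2b10, Cyp4v3 and Cyp4f16 all lie right of the dotted 3-fold line, and no other circle lies beyond a dotted line.

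Genes that serve or regulate P450 enzymes had smaller differences in the median. The median of the absolute floored differences was 0.96 for electron transfer partners, 0.56 for heme synthesis and breakdown and 0.84 for receptors, beside 1.43 for the P450 genes. Over all genes above background in either tissue this median was 0.52, and 11.2% of them were past 3-fold. Of the partners in electron transfer 7 of 10 listed genes were measured, all above background on both arrays, with 1 higher in the small intestine, 0 higher in the colon and a median difference of 0.43. This gene was Cyb5r3, the cytochrome b5 reductase, at 12.14 in the small intestine against 9.92 in the colon, 4.66-fold higher. Cytochrome b5 itself, Cyb5a, was at 13.02 in the small intestine against 12.07 in the colon. Fdx1, the ferredoxin that feeds mitochondrial P450s, was at 10.91 in the small intestine against 11.97 in the colon. Por, the NADPH reductase, was among the 3 listed genes with no named probe set here. Of 13 measured genes of heme synthesis and breakdown 0 were past 3-fold in either direction, and the median difference of the 11 above background was 0.37. Alas1, whose enzyme limits the rate of heme synthesis, was at 9.54 in the small intestine against 10.10 in the colon. Cpox was at 8.40 in the small intestine against 7.04 in the colon, 2.57-fold higher.

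Receptors known to regulate P450 genes included 3 past 3-fold among 20 measured, with 16 above background in either tissue. The share past 3-fold over all genes above background in either tissue was 11.2%. Nr1i3, the receptor CAR that induces Cyp2b10 in liver, was at 7.77 in the small intestine against 3.63 in the colon, higher in the small intestine by at least 6.81-fold. Hnf4g, a nuclear receptor of the gut, was at 8.74 in the small intestine against 4.82 in the colon, higher in the small intestine by at least 13.4-fold. Nr1h4, the bile acid receptor FXR, was at 8.35 in the small intestine against 10.07 in the colon, 3.32-fold higher in the colon. The median difference of the 16 receptors and co-regulators above background was 0.30. Nr1i2, the receptor PXR that induces Cyp3a11, was at 7.73 in the small intestine against 6.59 in the colon, 2.20-fold higher in the small intestine and under the rule. Ahr was at 8.47 in the small intestine against 8.85 in the colon, and Hnf4a at 12.22 in the small intestine against 12.33 in the colon. Levels of a receptor and of its known target genes come here from the same pair of arrays, so no relation between them was tested. The P450 enzymes Tbxas1 and Ptgis, which the symbol rule does not take, were at 5.01 and 6.80 in the small intestine and at 5.0 and 6.79 in the colon.

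**Figure D5:**
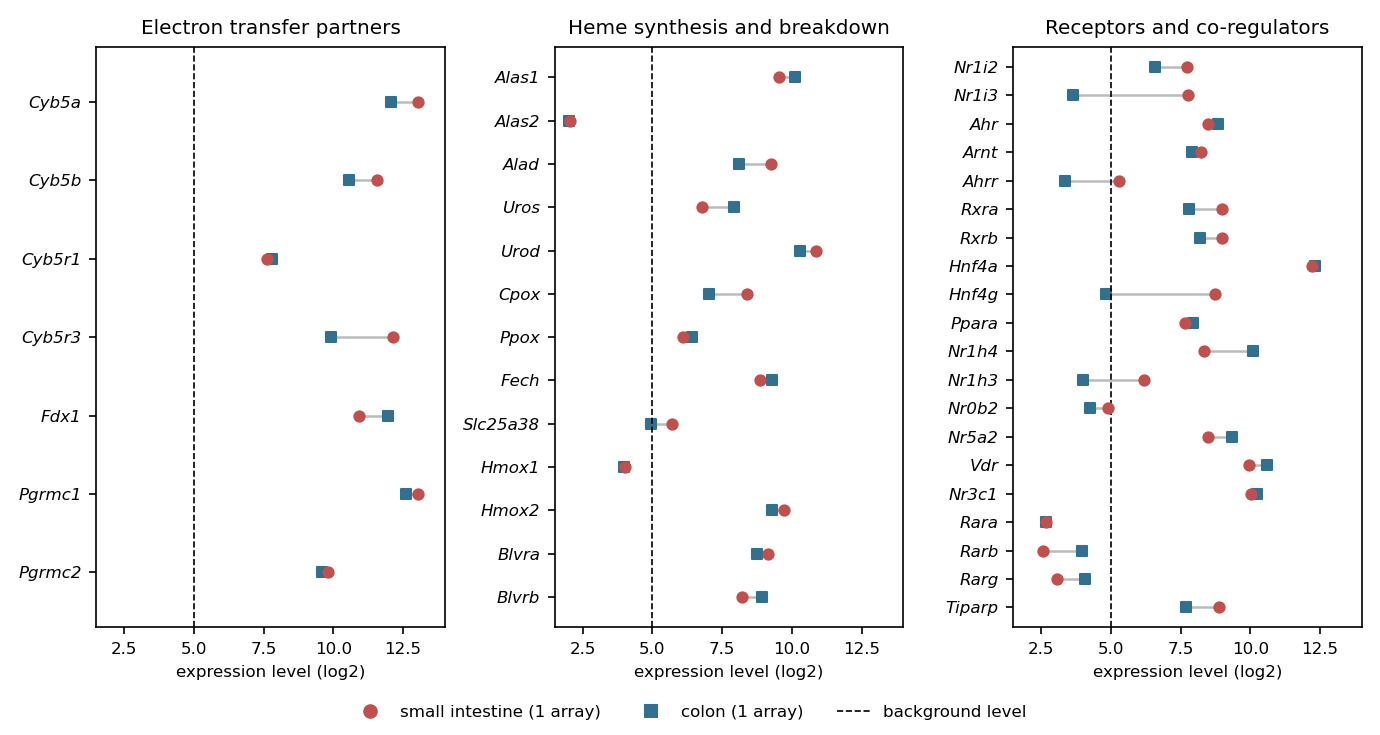
Levels (log2, horizontal axis) of 7 electron transfer partners, 13 genes of heme synthesis and breakdown and 20 receptors and co-regulators of P450 genes, with circles for the small intestine array, squares for the colon array and a dashed line at the background level. Long lines are seen for Nr1i3 and Hnf4g, with the circle to the right.

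Hepatocytes are the main site of many P450 genes, and 9 of 13 hepatocyte markers were at background on both arrays. Among these were Alb, Fga, Fgb and Ahsg, the genes of albumin, fibrinogen chains and fetuin. Alb was at 2.97 in the small intestine against 2.86 in the colon. Ttr and Hpd, which the list also holds, were higher in the colon, Ttr with 8.46 in the small intestine against 12.37 in the colon and Hpd with 7.39 in the small intestine against 10.06 in the colon. Cps1, on the same list and also made by enterocytes, was 114-fold higher in the small intestine. Markers of steroidogenic cells were at background on both arrays in 4 of 4 cases, and those of kidney tubules in 3 of 4, with 0 past 3-fold. Of the fibroblast markers 2 of 7 were higher in the colon, and of the adipocyte markers 0 of 4 were past 3-fold.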

How the data were processed

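Total RNA of small intestine and colon biopsies was extracted by the authors (Qiagen RNeasy), checked on a Bioanalyzer, labelled with biotin and hybridised to 1 array per tissue. The deposited values are log2 expression levels per probe set, normalized by the authors. The submitters' processing notes name GCRMA, while the study's methods name RMA for arrays, with no version. The set of arrays normalized with these was not given in the sources used here. GCRMA lowers the values of undetected probe sets and can widen folds against them. The methods describe jejunum and distal colon of C57B6 mice but refer to another series for arrays, so whether this holds here is not known. The number of arrays limits the precision.

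Values were used as deposited, for 45101 probe sets with a median of 3.99 (small intestine) and 4.01 (colon). Of these, 34958 named 1 gene in the platform annotation, 932 named several and were left out, and 9160, controls aside, had no name there. All 71 P450 symbols matched the RefSeq gene table by Entrez identifier and 0 changed. That table, of GRCm38.p6, holds 128 symbols of this form, so many P450 genes were not analysed here. Probe sets marked _x, _s or _a match several transcripts by the array maker's naming, with _a used for transcripts of the same gene. For 9 P450 genes the brightest set had a mark of this kind.

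Every P450 gene above background on either array is given with both levels and the others are named as undetected. The P450 genes, 4 lists of related genes and 11 lists of cell type markers (127 of 144 entries measured) were chosen with earlier results of these data known. The procedure was tested on simulated data. Alternatives were background levels of 4 and 6, no floor, folds of 2 and 5, quantile normalization, centring on array medians or hybridization spike-ins, other rules for the probe set and a stricter symbol rule. Start regions of 250 bases came from RefSeq GRCm38.p6. A row was found for 51 of 71 P450 genes, and the 46 with a single start were aligned and searched on both strands. For the genes shown, 80 bases were printed, or 30 where the window overlaps a longer model of the same gene. Cyp3a11 was cut to the 30 bases aligned with those of Cyp3a44. Proteins were not compared. Analyses used Python 3.11.15, numpy 2.4.6, pandas 2.3.3, Biopython 1.88 and matplotlib 3.10.9.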

Additional observations from a re-analysis of the deposited data

Results flagged for a closer look

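A probe set that names both Cyp4f37 and Cyp4f16 was left out of the comparisons because it names several genes. It lay above background, with 8.36 in the small intestine against 7.27 in the colon, 2.13-fold higher in the small intestine. The other 3 probe sets that name several P450 genes (Cyp2a5 with Cyp2a4, Cyp3a41b with Cyp3a41a, and Cyp4a31 with Cyp4a10) were at background on both arrays.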

How the results depend on the processing

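Of the 16 P450 genes past 3-fold, 12 kept their call in all 9 settings that keep the 3-fold rule, and 9 of these did so at 5-fold too. At 5-fold the count of genes higher in the small intestine was 5, against 9 at 3-fold, and that in the colon 5, against 7. With centring on spike-ins these counts were 9 and 5. The median floored difference of detected P450 genes, 0.55, was 0.011 at a background level of 4, -0.045 at 6 and 0.071 with the median over probe sets. At 6, Cyp1a1 (1.15) and Cyp2d9 (-1.37) were no longer past 3-fold. Cyp39a1 fell short of 3-fold under quantile normalization (-1.53) and with centring on the median (-1.57) or on spike-ins (-1.34), and Cyp2c65 with the last of these (-1.47). The 18 spike-in probe sets differed between the arrays by -1.52 to 0.33. Without sets marked _x, _s or _a, Cyp1a1, Cyp2c65 and Cyp2d9 had no probe set. With a background level of 4 or no floor, Cyp1b1, Cyp2c29, Cyp2u1 and Cyp7b1 passed 3-fold in the small intestine, and without a floor Cyp4x1 (-2.10) and Cyp2f2 (-1.62, with both levels at background) did in the colon. No paired analysis was possible because the series holds 1 array per tissue, and no replicate could be left out. No difference here has a replicate check, and levels near background give only bounds.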
